A study of Mus musculus with 24 samples.

Results

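The 9 genes Nr2f1, Nr2f2, Pou3f3, Six2, Six4, Eya1, Jag1, Hey1 and Hes1, which mark the upper jaw (dorsal, maxillary) identity of the pharyngeal arches, were followed across 6 genotypes of mouse embryos. They were taken as a list by symbol from 26611 genes with an identifier in the count table, and 9 of the 9 were found and passed the filter on low counts. The RNA-seq series held 24 libraries of polyadenylated RNA from arches 1 and 2 of female embryos at E10.5 on a C57BL/6 background, 4 biological replicates per genotype. The groups were Kat6a homozygous knockout (Kat6a -/-, Dlx5 +/+), Dlx5 homozygous knockout (Kat6a +/+, Dlx5 -/-), double heterozygous (Kat6a +/-, Dlx5 +/-), Kat6a heterozygous (Kat6a +/-, Dlx5 +/+), Dlx5 heterozygous (Kat6a +/+, Dlx5 +/-) and wild type (+/+ at both genes). Kat6a acetylates histones, and Dlx5 is a homeodomain factor of the lower jaw. The sources used here do not give how the alleles were built or whether a library is 1 embryo or a pool. Embryos came from 2 mouse facilities, labelled as batches: wild type and Kat6a homozygous libraries were all in batch 2, Dlx5 homozygous libraries were all in batch 1, and each other genotype had libraries from both.

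Neural crest cells that enter the arches are patterned along a dorsal to ventral axis. Endothelin signalling and the Dlx5 and Dlx6 genes specify the ventral, lower jaw domain, whereas the dorsal domain is marked by nuclear receptors of the Nr2f family, Pou3f3, Six2, Six4 and Eya1 and the Notch ligand Jag1. In mouse embryos that lack both Dlx5 and Dlx6 the lower jaw takes on upper jaw features, and in zebrafish Jag1 and Notch signalling favour dorsal fates. Each library held arches 1 and 2 as a whole, so a level is a sum over dorsal and ventral domains. In such bulk samples fewer cells of a type and less RNA per cell cannot be told apart.

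The part of the list that changed was the pair of Nr2f genes, which encode the COUP-TF nuclear receptors. Nr2f1 (Entrez gene 13865) lies on the minus strand at chr13:78188971-78198873 and Nr2f2 (Entrez gene 11819) on the minus strand at chr7:70351946-70366746, both in GRCm38, the assembly that mm10 names. The 250 bases before the RefSeq start of each gene (RefSeq, GRCm38.p6, minus strand) are shown because these members fell together, and those of Six2, on the minus strand at chr17:85662736-85688254, because it was the member that varied most. Windows are chr13:78198874-78199123, chr7:70366747-70366996 and chr17:85688255-85688504, and capitals mark the GC box GGGCGG on either strand.
Nr2f1: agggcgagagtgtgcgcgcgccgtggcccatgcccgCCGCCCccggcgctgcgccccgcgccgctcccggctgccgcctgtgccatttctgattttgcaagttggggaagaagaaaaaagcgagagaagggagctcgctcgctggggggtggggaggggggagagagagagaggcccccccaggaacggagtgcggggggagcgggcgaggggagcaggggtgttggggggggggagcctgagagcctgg
Nr2f2: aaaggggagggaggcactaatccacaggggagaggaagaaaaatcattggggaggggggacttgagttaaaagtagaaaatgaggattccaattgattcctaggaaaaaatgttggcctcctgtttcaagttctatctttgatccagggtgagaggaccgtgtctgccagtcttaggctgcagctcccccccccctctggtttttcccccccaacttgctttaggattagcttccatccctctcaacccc
Six2: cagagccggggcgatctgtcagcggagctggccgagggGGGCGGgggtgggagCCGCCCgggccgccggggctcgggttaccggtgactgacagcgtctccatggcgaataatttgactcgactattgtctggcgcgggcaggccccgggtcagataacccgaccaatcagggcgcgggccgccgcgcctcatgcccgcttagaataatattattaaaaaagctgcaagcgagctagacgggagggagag

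The window before Nr2f1 was 72.0% G and C with 22 CpG and that before Nr2f2 held 1 CpG, against medians of 52.4% and 6 CpG over 32851 windows of the same length. Six2 had 64.8% and 26 CpG. GGGCGG was found once before Nr2f1, at no position before Nr2f2 and at 2 positions before Six2, and 32.7% of all windows hold it. Searches on both strands for TAATTA, a core bound by many homeodomain proteins (in 4.8% of all windows), and for AGGTCA, bound by many nuclear receptors (in 14.0%), gave no match in these 3 windows, which says only that these letters are not there. The Nr2f2 window precedes the outermost RefSeq start, and the first bases after it were not found in a GENCODE M21 transcript of the gene. Windows were in the table for 6 members, and Eya1, Hey1 and Hes1 were not in it.

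Counts on genes ran from 10406452 to 28198111 per library, highest in wild type replicate 1, and the members held 182 to 5727 reads each per library. Differences were tested with edgeR over all 14506 genes that passed the filter, with batch in the model. Calls were made where the p-value adjusted by Benjamini-Hochberg was below 0.05. Libraries labelled Dlx5 homozygous share no batch with wild type, so every modelled difference between these groups rests on the batch term. Levels are given as TMM-scaled CPM, that is, each count divided by its library's adjusted size. Kat6a averaged 228 ± 15 CPM in libraries labelled Kat6a homozygous and 202 ± 41 CPM in wild type (SD, n = 4 each; log2 difference 0.17, adjusted p = 0.474). Dlx5 averaged 62.6 ± 5.1 CPM in libraries labelled Dlx5 homozygous and 69.4 ± 6.8 CPM in wild type (SD, n = 4 each), with 2 of the 4 homozygous libraries below every wild type library. With batch in the model the log2 difference of Dlx5 was 0.03 (adjusted p = 0.947), so neither gene was called lower. Gene totals cannot show a deletion of part of a gene, so directions below are those of the libraries so labelled. Arch mesenchyme markers were abundant, with 8 markers summing to 1496 to 1971 CPM, whereas 13 tested neuron markers summed to 135 to 669 CPM. In each of the Kat6a homozygous, Kat6a heterozygous, Dlx5 heterozygous and wild type groups the neuron sum was highest in replicate 2. Of the neuron markers, Gap43 and Isl1 had 78.4 to 122 and 23.8 to 46.0 unscaled CPM over all libraries. Stmn2 ran from 0.65 to 45.1 and Neurod1 from 0.17 to 21.9 unscaled CPM, a wider contrast than the sums show. No member was extreme within its genotype by Dixon's criterion in 54 sets of 4 libraries.

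Per kilobase of the deposited gene length, Nr2f1 had the highest mean level of the members over 24 libraries, 74.9 CPM per kilobase, followed by Nr2f2 with 38.8. Hes1 had 26.9 and Eya1 24.1 CPM per kilobase. Hey1 had 15.0, Pou3f3 14.6, Six4 14.0, Six2 12.8 and Jag1 9.01 CPM per kilobase. Nr2f1 thus stood at the 93.2 percentile of tested genes by level per kilobase and Jag1 at the 47.9 percentile. Over all 6 genotypes, the edgeR test for any difference passed for Nr2f2 alone (adjusted p = 0.0265), that is 1 of 9 members against 1.39% of all genes tested. Nr2f1 had adjusted p = 0.0682 and Six2 adjusted p = 0.0860, and the remaining members had adjusted p of 0.137 (Eya1) to 0.783 (Hes1).

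**Figure D1:**
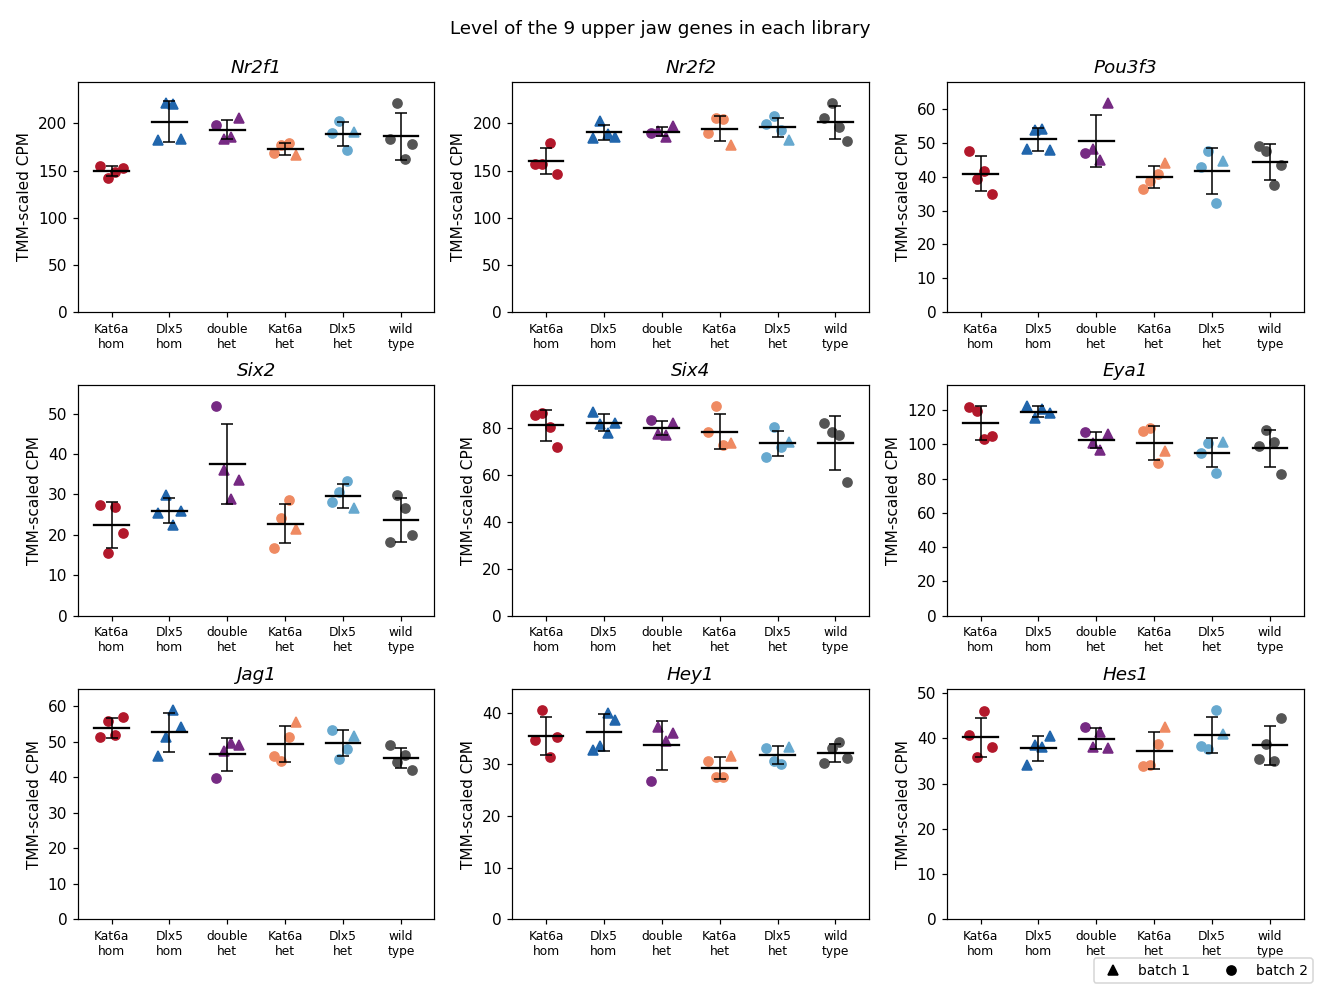
Level of each of the 9 genes in TMM-scaled CPM (vertical axis, from 0) by genotype, with libraries as points (triangles batch 1, circles batch 2), the mean as a bar and the SD as an error bar (n = 4). The libraries labelled Kat6a homozygous had the lowest mean for Nr2f1 and Nr2f2 and shared no range with wild type there.

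In the libraries labelled Kat6a homozygous, Nr2f1 and Nr2f2 fell and none of the other 7 members was called. This was 2 of 9 called lower and 0 of 9 called higher, against 1.06% and 0.469% of all genes tested. The libraries labelled Kat6a homozygous had 155, 142, 149 and 153 CPM of Nr2f1, against 183, 222, 162 and 178 CPM in wild type. All 4 lay below all 4 wild type libraries. The log2 fold change was -0.32 (SE 0.08, 95% interval -0.48 to -0.15, adjusted p = 0.0377), a fold of 0.804. For Nr2f2 the libraries labelled Kat6a homozygous had 157, 157, 179 and 147 CPM, against 205, 222, 196 and 181 CPM in wild type. Again the groups did not overlap, by a margin of 179 against 181 CPM between the nearest libraries. The log2 fold change of Nr2f2 was -0.33 (SE 0.06, 95% interval -0.46 to -0.20, adjusted p = 0.00428), a fold of 0.795. Groups that did not overlap with the homozygous one lower occurred in 3.54% of all genes tested.

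Both receptors bind DNA as dimers, and in zebrafish and mouse they are known for their part in upper jaw identity. The fall of Nr2f2 was called in 34 of 35 alternative settings and that of Nr2f1 in 26 of 35, and the sign was negative in each. Of these settings 24 left out 1 library, often from a group not compared here, where the estimate hardly moved. With only the groups compared in the fit neither gene was called (adjusted p = 0.0807 for Nr2f2 and 0.151 for Nr2f1). Within batch 2 the values were -0.34 for Nr2f2 (adjusted p = 0.0302, with 0.653% of genes called) and -0.32 for Nr2f1 (adjusted p = 0.0863). Wild type replicate 2, which held the most neuron marker RNA of its group, also had the highest wild type level of both genes, and without it Nr2f1 stood at -0.23 (adjusted p = 0.159) and Nr2f2 at -0.29, still called. The Nr2f1 call was also lost without any 1 of the 4 homozygous libraries (adjusted p = 0.0573 to 0.0955).

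Markers of other cell types were measured beside these falls. Neuron markers summed to 162 to 415 CPM in libraries labelled Kat6a homozygous, against 135 to 596 CPM in wild type. Neurog2, which marks early neurons, was too low to test, with 0 counts in 10 of 24 libraries. With the neuron score of each library (the mean log2 level of the list, centred over libraries) in the model the log2 fold changes were -0.31 for Nr2f1 (adjusted p = 0.0264) and -0.33 for Nr2f2 (adjusted p = 0.00291). Endothelium markers, 12 of 12 tested, summed to 389 to 460 CPM in libraries labelled Kat6a homozygous, against 355 to 413 CPM in wild type, and Nr2f2 is itself a gene of venous endothelium. With the endothelium score in the model Nr2f2 stood at -0.31 (adjusted p = 0.0154) and Nr2f1 at -0.30 (adjusted p = 0.0918). Arch mesenchyme markers summed to 1522 to 1842 CPM, against 1496 to 1853 CPM in wild type. Their scores were -0.13 to 0.07, against -0.03 to 0.19 in wild type, with 1 of 8 markers, Dlx2, called lower. Muscle scores were -0.36 to -0.15, against -0.28 to 0.12 in wild type, with 1 of 8 tested markers, Msc, called lower. Over 24 libraries Nr2f1 and Nr2f2 had r = 0.41 and 0.49 with the muscle score. Other lists reached similar values: 0.56 and 0.31 with arch mesenchyme, 0.46 and 0.50 with otic and placode markers, and -0.44 and -0.50 with endothelium. Erythroid markers summed to 7317 CPM in Kat6a homozygous replicate 4, the lowest library for Nr2f2, against 1926 to 4824 CPM in wild type. The parts of arch mesenchyme, of muscle and of otic and placode cells in these falls were not tested. Without replicate 4 of the homozygous group Nr2f2 stood at -0.30, still called.

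**Figure D2:**
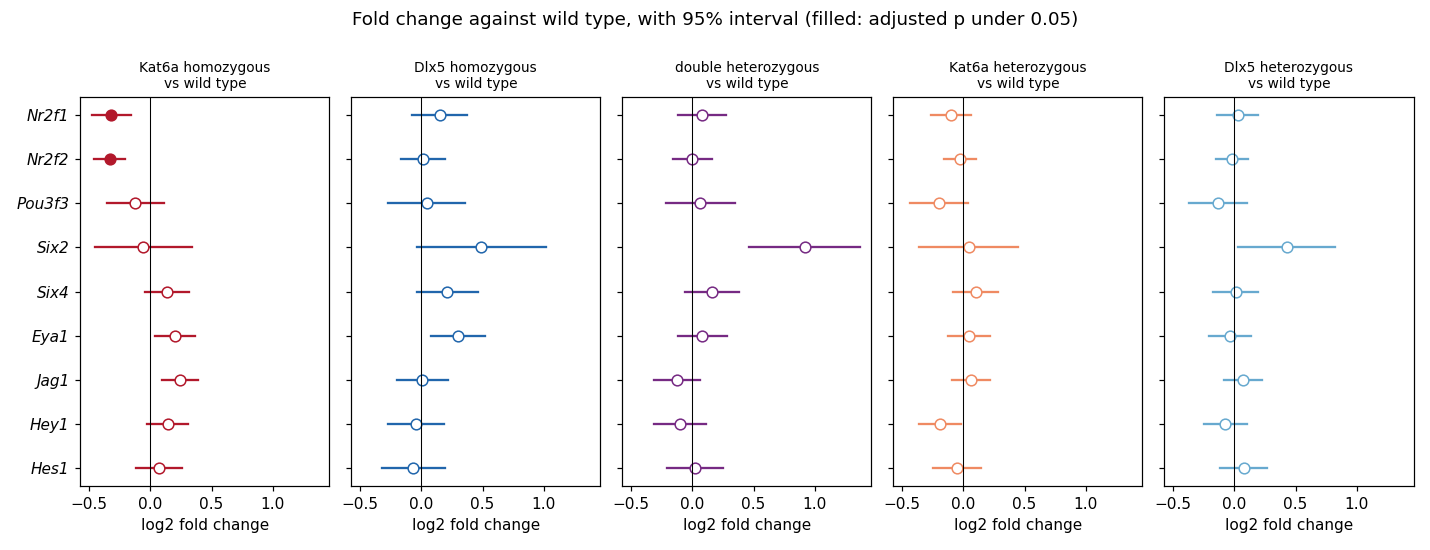
Log2 fold change of each gene against wild type (horizontal axis) with its 95% interval, one panel per genotype, filled where adjusted p was under 0.05. Filled points are Nr2f1 at -0.32 and Nr2f2 at -0.33 in the Kat6a homozygous panel, and the point farthest from 0 is Six2 at 0.92 in the double heterozygous panel.

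Against Kat6a heterozygous libraries, which carry 1 mutant allele of the gene, Nr2f2 was lower again in the libraries labelled Kat6a homozygous. It averaged 160 ± 14 CPM there and 194 ± 13 CPM in Kat6a heterozygous libraries (SD, n = 4 each), and the log2 difference of -0.30 (SE 0.06) had an adjusted p of 0.0191. This was 1 of 9 members called lower against 0.524% of all genes tested. The call was lost within batch 2 (-0.32, adjusted p = 0.0964) and without Kat6a heterozygous replicates 2 or 3 or Kat6a homozygous replicates 1, 2 or 4 (adjusted p = 0.0575 to 0.133). It was also lost with only these groups in the fit (-0.32, adjusted p = 0.120) and with the endothelium score in the model (-0.22, adjusted p = 0.326), where the scores of the groups did not overlap. Nr2f1 averaged 150 ± 5.6 CPM, against 173 ± 6.4 CPM in Kat6a heterozygous libraries (SD, n = 4 each), with a log2 difference of -0.22 (adjusted p = 0.313). Kat6a heterozygous libraries themselves stood at -0.03 for Nr2f2 and -0.10 for Nr2f1 against wild type (adjusted p = 0.908 and 0.661). Both comparisons of the homozygous group share its libraries.

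Reads of an antisense partner could enter these counts, since the sources used here do not say whether counting used strand. A830082K12Rik overlaps Nr2f1 by 1741 bases on the opposite strand and had 1815 reads over all libraries, against 55133 of Nr2f1. It averaged 6.56 ± 0.49 CPM in libraries labelled Kat6a homozygous and 6.10 ± 0.75 CPM in wild type (SD, n = 4 each; log2 difference 0.12, adjusted p = 0.755). B130024G19Rik overlaps Nr2f2 by 1826 bases with 970 reads, against 57307 of Nr2f2, and averaged 2.15 ± 0.58 CPM and 3.11 ± 0.21 CPM in the same groups (SD, n = 4 each; log2 difference -0.54, adjusted p = 0.218). The transcripts of Nr2f1 and Nr2f2 share 10 of 5090 and 8582 words of 50 bases, so few reads of that length could belong to either.

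Pou3f3, a POU domain factor of the dorsal arch and of neurons, lies on chromosome 1 and was not called in any comparison. Libraries labelled Kat6a homozygous had 47.7, 39.4, 41.8 and 35.0 CPM, against 49.0, 47.8, 37.4 and 43.4 CPM in wild type, with overlapping ranges. The log2 difference was -0.12 (95% interval -0.35 to 0.11). In double heterozygous libraries 3 of 4 values lay between 45.1 and 48.3 CPM and replicate 4 reached 61.9 CPM, and the level beyond the sum of both single heterozygous differences was 0.40 (adjusted p = 0.877).

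Six2, a homeodomain factor of arch mesenchyme, had the widest spread of the list. Double heterozygous libraries had 51.8, 36.1, 28.9 and 33.6 CPM of Six2, against 18.3, 29.9, 26.7 and 19.9 CPM in wild type. Of these, 3 lay above every wild type library and replicate 3 lay among them. The log2 difference was 0.92 (SE 0.22, 95% interval 0.46 to 1.37), yet the adjusted p was 0.0697, so it was not called by edgeR. DESeq2 called it (0.89, adjusted p = 0.00739, with 1.33% of its genes called), as did limma voom (0.90, adjusted p = 0.0445, with 0.910% called), and it was called in 6 of 35 alternative settings. The edgeR call was gained without wild type replicate 2, Kat6a heterozygous replicate 1, double heterozygous replicate 3 or Kat6a homozygous replicate 2 (adjusted p = 0.0265 to 0.0493).

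Double heterozygous replicate 1, at 51.8 CPM, was the only library of its group in batch 2 and the highest for Six2 in the series. Without it the difference stood at 0.64 (adjusted p = 0.667), and without the batch term at 0.68 (adjusted p = 0.215). The fitted batch difference of Six2 was -0.34 (batch 1 over batch 2, SE 0.17, adjusted p = 0.787). Neuron markers summed to 239 to 434 CPM in all 4 double heterozygous libraries, against 135 to 154 CPM in 3 wild type libraries and 596 CPM in wild type replicate 2. With the neuron score in the model Six2 stood at 0.91 (adjusted p = 0.128). Over 24 libraries Six2 had r = 0.67 with the score of arch mesenchyme markers, and r = 0.65 with that of muscle markers, which share library and depth with it. Muscle scores (8 of 9 markers tested) were 0.13 to 0.49 in double heterozygous libraries, against -0.28 to 0.12 in wild type, and their part in the result was not tested.

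**Figure D3:**
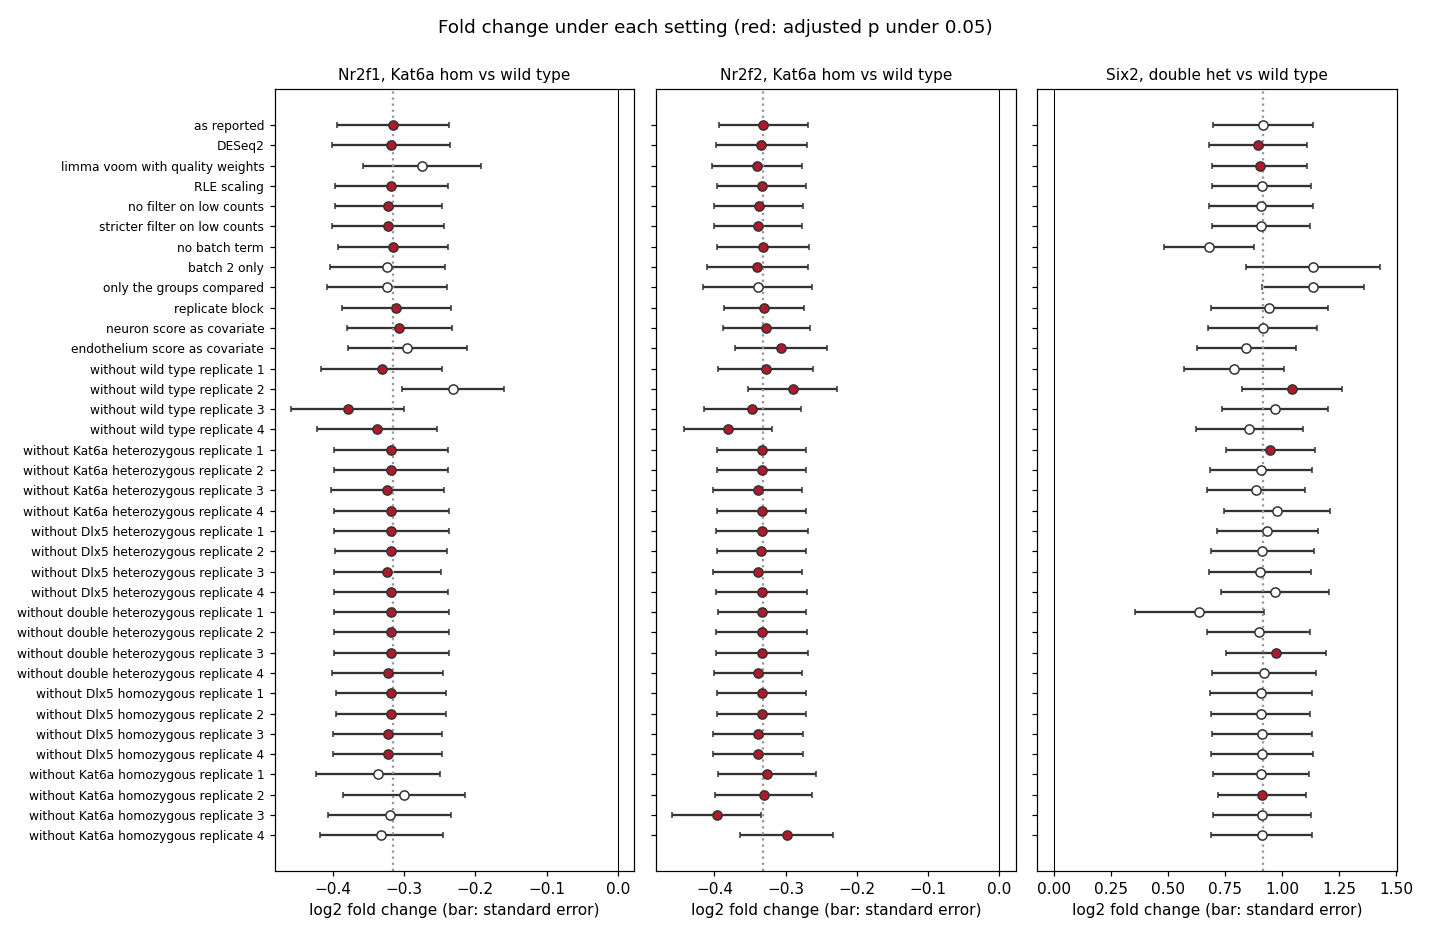
Log2 fold change (horizontal axis, bar SE) of Nr2f1 and Nr2f2 in libraries labelled Kat6a homozygous and of Six2 in double heterozygous libraries, each against wild type, under the reported fit and 35 alternatives, red where adjusted p was under 0.05. Nr2f1 ran from -0.38 to -0.23, Nr2f2 from -0.40 to -0.29 and Six2 from 0.64 to 1.14.

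Other genotypes did not pass the test for Six2 either. Dlx5 heterozygous libraries had 28.2, 30.6, 33.4 and 26.6 CPM, against 18.3, 29.9, 26.7 and 19.9 CPM in wild type, a log2 difference of 0.43 (95% interval 0.03 to 0.82, adjusted p = 0.407). Libraries labelled Dlx5 homozygous had 25.5, 29.98, 22.5 and 25.9 CPM and stood at 0.49 (95% interval -0.04 to 1.01, adjusted p = 0.526). That value rests on the batch term, fitted at -0.34 for Six2, since these groups share no batch. Without adjustment for batch the means were 26.0 ± 3.1 CPM and 23.7 ± 5.5 CPM in wild type (SD, n = 4 each). Over 34 alternative settings the log2 difference ran from 0.14 to 0.61. Libraries labelled Kat6a homozygous had 27.3, 15.4, 26.8 and 20.4 CPM and stood at -0.06 against wild type (95% interval -0.45 to 0.34), while Kat6a heterozygous libraries averaged 22.8 ± 4.9 CPM (SD, n = 4). The level of Six2 in double heterozygous libraries beyond the sum of both single heterozygous differences was 0.44 (95% interval -0.10 to 0.99, adjusted p = 0.896).

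Eya1, the phosphatase partner of Six2 and its relatives, lies on chromosome 1 (chr1:14168953-14311035). Libraries labelled Dlx5 homozygous had 122, 115, 120 and 119 CPM of Eya1, against 98.8, 108, 101 and 82.6 CPM in wild type. These groups did not overlap, which with the homozygous one higher held for 2.32% of all genes tested. The log2 difference was 0.30 (SE 0.11, 95% interval 0.08 to 0.52), and its adjusted p was 0.384. It rests on the batch term, since the groups share no batch. With the endothelium score of each library in the model it stood at 0.56 (adjusted p = 0.0612). Endothelium scores were -0.15 to -0.09 in libraries labelled Dlx5 homozygous, against -0.00 to 0.12 in wild type, and 1 of the 12 endothelium markers, Cldn5, was called lower. Against double heterozygous libraries, 3 of 4 of which share batch 1, Eya1 averaged 119 ± 3.0 CPM and 103 ± 4.7 CPM in double heterozygous libraries (SD, n = 4 each; log2 difference 0.22, adjusted p = 0.661). Within batch 1 alone, a setting chosen after seeing the data, it was called higher at 0.23 (adjusted p = 0.0293), where 1.04% of genes were called. With only these 2 groups in the fit it was called at 0.23 (adjusted p = 0.0320), where 0.946% were called. Marker scores of these groups stood apart: neuron scores were -1.57 to -1.17 in libraries labelled Dlx5 homozygous, against 0.73 to 1.89 in double heterozygous libraries. Crest glia scores were -1.07 to -0.38, against 0.15 to 0.75 in double heterozygous libraries. Muscle scores were -0.42 to -0.04, against 0.13 to 0.49 in double heterozygous libraries. Over 24 libraries Eya1 had r = -0.53 with the muscle score, -0.28 with that of crest glia and -0.06 with that of neurons. The parts of muscle and of crest glia in this difference were not tested. Eya1 stood at 0.33 with the neuron score in the model (adjusted p = 0.454) and at 0.41 with the endothelium score (adjusted p = 0.0863).

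Libraries labelled Kat6a homozygous had 122, 120, 103 and 105 CPM of Eya1 and stood at 0.20 against wild type (SE 0.08, adjusted p = 0.239). Six4, another homeodomain partner of Eya proteins, was not called in any comparison. It ranged from 71.7 to 86.5 CPM in libraries labelled Kat6a homozygous, from 78.1 to 86.9 CPM in those labelled Dlx5 homozygous and from 56.9 to 82.2 CPM in wild type, where replicate 4 was lowest. Its log2 differences from wild type ran from 0.01 in Dlx5 heterozygous to 0.21 in Dlx5 homozygous labelled libraries.

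The Notch members were Jag1, a ligand, and Hey1 and Hes1, transcriptional repressors that Notch signalling induces. Libraries labelled Kat6a homozygous had 51.2, 55.7, 51.8 and 56.9 CPM of Jag1, against 48.9, 44.3, 46.2 and 42.1 CPM in wild type. All 4 lay above all wild type libraries, a separation found with the homozygous group higher in 2.87% of all genes tested. The log2 difference was 0.24 (SE 0.07, 95% interval 0.09 to 0.39, adjusted p = 0.0959), so Jag1 was not called, nor was it in any of 35 alternative settings (adjusted p = 0.0513 to 0.261). Hey1 had 34.7, 40.5, 31.4 and 35.2 CPM in libraries labelled Kat6a homozygous, against 30.5, 27.5, 27.6 and 31.6 CPM in Kat6a heterozygous libraries. Only the lowest homozygous value overlapped with the heterozygous range. That log2 difference was 0.33 (SE 0.08, adjusted p = 0.0666), and it was called by DESeq2 (adjusted p = 0.0401, where 1.00% of genes were called) and by edgeR without Kat6a homozygous replicate 3 (adjusted p = 0.0351). With the endothelium score in the model it stood at 0.16 (adjusted p = 0.543), and endothelium scores were 0.05 to 0.23 in libraries labelled Kat6a homozygous, against -0.20 to -0.00 in Kat6a heterozygous libraries.

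Against wild type Hey1 stood at 0.14 in libraries labelled Kat6a homozygous and at -0.19 in Kat6a heterozygous libraries (adjusted p = 0.451 and 0.397). Both Jag1 and Hey1 differed between facilities by fitted log2 values of 0.20 and 0.21 (batch 1 over batch 2, SE 0.07 and 0.08), neither called (adjusted p = 0.546 and 0.566; 0.0345% of all genes were called). Double heterozygous replicate 1, in batch 2, was the lowest library of the series for both, at 39.7 and 26.8 CPM. Hes1 lay between 33.9 and 46.3 CPM over all libraries, and its log2 differences from wild type ran from -0.07 to 0.08 in the 5 mutant groups.

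In the libraries labelled Dlx5 homozygous edgeR called 0 of the 9 members, against 0.0551% of all genes tested. At an unadjusted p under 0.05 there was 1 member, Eya1, against 9.97% of all genes, and DESeq2 and limma voom each called 0 (0.332% and 0.117% of all genes). Intervals around the differences from wild type reached from -0.16 to 0.19 for Nr2f2, from -0.07 to 0.37 for Nr2f1, from -0.20 to 0.21 for Jag1 and from -0.27 to 0.36 for Pou3f3. As these groups share no batch, the intervals rest on the batch term. In double heterozygous libraries edgeR called 0 of 9, against 0.448% of all genes, with 1 member, Six2, at an unadjusted p under 0.05 against 13% of all genes, and DESeq2 and limma voom called 1 each. In Kat6a heterozygous and in Dlx5 heterozygous libraries edgeR, DESeq2 and limma voom each called 0 of 9. At an unadjusted p under 0.05 there was 1 member in each, Hey1 lower in the Kat6a heterozygous group and Six2 higher in the Dlx5 heterozygous group, against 11.4% and 11.3% of all genes. edgeR and limma voom called 0% of all genes in both of these comparisons, and DESeq2 0.74% and 0.242%. Without wild type replicate 1, the deepest library, edgeR called 1.34% of all genes (196) in the Kat6a heterozygous group and still 0 of 9 members. Beyond the sum of single heterozygous differences, edgeR, DESeq2 and limma voom each called 0 of 9 members, with 2 at an unadjusted p under 0.05 (Pou3f3 higher, Jag1 lower at -0.26), against 5.4% of all genes, and edgeR called 0.00689% of all genes.

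The mean order of genotypes did not separate most neighbours. Of 45 neighbouring pairs of genotype means over the 9 members, 4 differed by more than the larger SD of the pair, and the ranges were apart in 2 of these. Those were the step from Kat6a homozygous to Kat6a heterozygous labelled libraries for Nr2f1 (150 and 173 CPM) and from Kat6a homozygous to Dlx5 homozygous labelled libraries for Nr2f2 (160 and 190 CPM). Neighbours were formed by sorting these same means, and the share of all genes with ranges apart in these steps is not given. The 2 steps are therefore description and are not read as a result about these genes. The groups of the Nr2f2 step share no batch, and these CPM were not adjusted for batch. For both genes the Kat6a homozygous group was the lowest of 6. The highest was Dlx5 homozygous for Nr2f1 (202 ± 22 CPM) and wild type for Nr2f2 (201 ± 17 CPM, SD, n = 4 each), within the spread of their neighbours.

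Related genes from lists chosen beside the members were counted in the same fit. In the 5 comparisons with wild type edgeR called 0% to 1.53% of all genes. In each, near those shares, 0 of 30 tested Notch pathway genes other than the members were called. In libraries labelled Kat6a homozygous their median log2 difference was -0.04, against 0.01 over all genes, and the smallest p belonged to Dtx4, an E3 ligase of the Deltex family (-0.44, SE 0.12, adjusted p = 0.0677). Of 16 tested genes of the Pax-Six-Eya-Dach network 2 fell in libraries labelled Kat6a homozygous, Six3 (-2.62, at a mean of 1.47 CPM over all libraries) and Tshz1 (-0.34, SE 0.08, adjusted p = 0.0304), with a list median of 0.08, against 1.06% of all genes called lower. In double heterozygous libraries 3 of the 16 were called: Eya4, a relative of Eya1, rose by 0.64 (SE 0.14, adjusted p = 0.0296), Pax9 rose by 0.84 and Six3 fell by 1.99, against 0.448% of all genes called. That list's median there was 0.25, against 0.01 over all genes. Over all genes edgeR called 65 in that comparison, but 1 without double heterozygous replicate 1. It called 10 without the batch term and 10 with only the groups compared. Whether Eya4, Pax9 and Six3 kept their calls in these settings is not given. Of 10 tested relatives of Nr2f and Pou3f genes 0 were called against wild type in any of the 5 mutant groups. That count too lies near the shares over all genes, and the list median was -0.00 in libraries labelled Kat6a homozygous.

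Among 19 other upper jaw genes 5 fell and 0 rose in libraries labelled Kat6a homozygous (Dlx1, Dlx2, Osr1, Osr2 and Foxd1, median -0.17 over the 19), against 1.06% of all genes called lower and 0.469% called higher. Among 19 lower jaw genes 5 also fell and 0 rose (Dlx3, Dlx4, Dlx5, Barx1 and Gbx2, median -0.18). Dlx1 fell by 0.53 (SE 0.07) and Dlx5 by 0.87 (SE 0.08), more than Nr2f2 at -0.33, though differences between genes were not tested. In libraries labelled Dlx5 homozygous 0 of either list were called, near the share of 0.0551% over all genes. The medians were 0.16 for the upper and -0.09 for the lower jaw list, against -0.00 over all genes. The smallest p in the upper list there was that of Foxd1 (0.60, SE 0.16, adjusted p = 0.226).

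**Figure D4:**
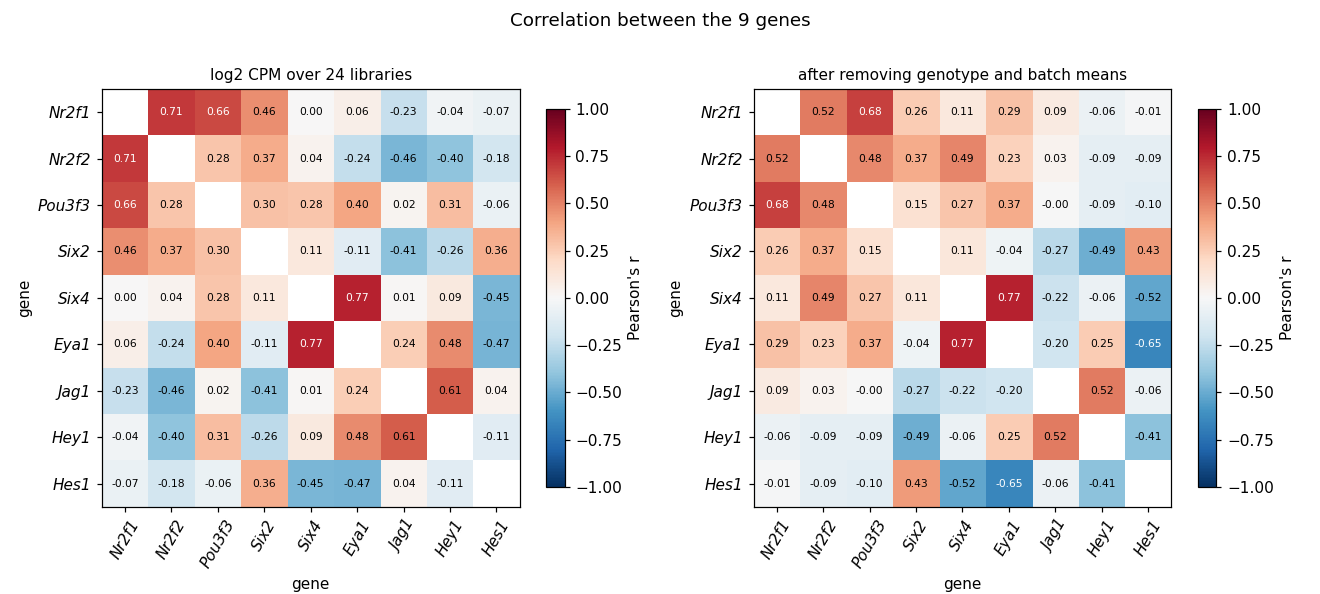
Pearson's r between the 9 genes on log2 CPM over 24 libraries (left) and after genotype and batch means were removed (right). The pair Six4 and Eya1 had 0.77 in both panels, and Jag1 with Hey1 had 0.61 and 0.52.

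The members did not move as 1 group across libraries. Of 36 pairs, 4 had r above 0.5 over 24 libraries, and the median r was 0.04. Six4 and Eya1 had r = 0.77, Nr2f1 and Nr2f2 r = 0.71, Nr2f1 and Pou3f3 r = 0.66 and Jag1 and Hey1 r = 0.61. With genotype and batch means removed these values were 0.77, 0.52, 0.68 and 0.52, whereas Eya1 and Hes1 stood at -0.65. Such values describe these libraries, which share depth, dissection and base composition. The genes most like each member by r over the 24 libraries were Dnm1 for Nr2f1 (0.84), Rgmb for Nr2f2 (0.87), Sox9 for Pou3f3 (0.76), Fzd1 for Six2 (0.90) and Wnk3 for Six4 (0.97). They were Seh1l for Eya1 (0.90), Qtrt2 for Jag1 (0.78), Prpf3 for Hey1 (0.74) and Ier5 for Hes1 (0.87). The next most alike were Lmnb2 and Crabp1 for Nr2f1, Efnb2 and Dpysl4 for Nr2f2, Dlx2 and Patz1 for Pou3f3, and Foxf2 and Pth1r for Six2. They were Gfpt1 and Erbin for Six4, Naa50 and Caprin1 for Eya1, Atxn2l and Ttc13 for Jag1, Krr1 and Wdr43 for Hey1, and Agbl3 and 2810410L24Rik for Hes1. With epithelium markers Eya1 had r = -0.69 and Hes1 r = 0.64.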

How the data were processed

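The authors deposited raw counts per gene, as 1 table with Entrez identifiers and gene lengths and no normalization. CASAVA 1.8.2, featureCounts and the build mm10 are named in the processing, per the submitters' processing notes. Aligner, annotation release and use of strand are not stated in the sources used here. Libraries were stranded mRNA libraries, per the labels' protocols. Of 27179 entries, 568 without an identifier (0.182% to 0.259% of a library's counts) were left out. Of the others, 25275 matched a symbol in RefSeq GRCm38.p6.

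The counts were tested in edgeR 4.0.16 (R 4.3.3) with filterByExpr by group, TMM scaling and a robust quasi-likelihood fit of 6 group means and batch (17 residual degrees of freedom). P-values were Benjamini-Hochberg adjusted over 14506 genes, and intervals use the fit's total degrees of freedom. Log2 CPM used a prior count of 2. The genes, lists and tests were chosen with earlier results of these data known. Named besides the 9 genes are called list genes, the smallest p of a list and the 3 most alike genes. The replicates are biological, per the design text. Pairs of replicates differed by 2.99 to 23.8 times the chi-square of sampling alone, so none was counted as a duplicate.

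Alternatives were DESeq2 1.42.0, limma 3.58.1 voom, RLE scaling, no or a stricter filter (1 CPM in 12 libraries), a fit without batch, libraries of batch 2 alone, a fit of just the compared groups, a replicate block, neuron or endothelium scores as covariates and each library left out. Batch 1 alone was added after seeing the data. The labels give no origin of the replicate numbers. Same-numbered deviations from group means correlated above 0.1 in all 4 pairs of Kat6a heterozygous with wild type libraries (0.162 to 0.654). The same held for Kat6a heterozygous with Kat6a homozygous libraries (0.104 to 0.604). In the other comparisons checked not all 4 did, as for Kat6a homozygous with wild type libraries (0.0949 to 0.569). The highest values were those of replicate 2, which had the most neuron marker RNA in these groups. Pairing and shared tissue content therefore cannot be told apart. The reported fit held no replicate block, and a fit with it was run as an alternative.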

Additional observations from a re-analysis of the deposited data

How the results depend on the processing

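No called value of a member changed sign in any of the alternatives run. Of 2511 member values under alternatives, 18 lost and 10 gained a call, and 142 that passed in neither fit changed sign, which was not read as a direction. For Kat6a homozygous against wild type 2 members were called, against 1 with limma voom, 1 within batch 2, 1 with the endothelium score and 0 with only the groups compared (Nr2f2 adjusted p = 0.0807), and 1 to 2 when single libraries were left out. For double heterozygous against wild type 0 were called, 1 with DESeq2, 1 with limma voom and 0 to 1 without single libraries. For Kat6a homozygous against Kat6a heterozygous 1 was called, 2 with DESeq2, 0 within batch 2, 0 with only the groups compared, 0 with the endothelium score and 0 to 2 without single libraries. For Dlx5 homozygous against double heterozygous 0 were called, 1 within batch 1 and 1 with only the groups compared. Fits on fewer libraries have fewer residual degrees of freedom, and whether this or another cause changed the calls was not tested. Counts were 0 under each alternative run for Dlx5 homozygous, Kat6a heterozygous and Dlx5 heterozygous against wild type and for the non-additive part. With the replicate block 2 members were called for Kat6a homozygous against wild type (Nr2f2 at -0.33, adjusted p = 0.00131) and no call of a member changed in any comparison. The order of genotype means used unscaled CPM as its alternative, where both Nr2f genes kept the Kat6a homozygous group lowest. Over all genes, edgeR, DESeq2 and limma voom called 222, 306 and 144 for Kat6a homozygous against wild type, 65, 185 and 132 for double heterozygous, 8, 37 and 17 for Dlx5 homozygous, 0, 72 and 0 for Kat6a heterozygous and 0, 14 and 0 for Dlx5 heterozygous. Leaving out single libraries moved these edgeR counts to between 122 (without Kat6a homozygous replicate 1) and 444 (without wild type replicate 1) for Kat6a homozygous, with 142 without wild type replicate 2 and 141 without Kat6a homozygous replicate 2. For double heterozygous they ran from 1 (without its replicate 1) to 169 (without wild type replicate 1), for Dlx5 homozygous from 0 to 16, for Kat6a heterozygous from 0 to 196 and for Dlx5 heterozygous from 0 to 1. No within-batch value exists for Dlx5 homozygous against wild type.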
